A study of Mus musculus with 12 samples.

Results

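The genes described here were 10 genes of neutrophils and monocytes, S100a8, S100a9, Lyz1, Lyz2, Camp, Ltf, Ngp, Fcer1g, Tyrobp and Tgfbi, followed on every array of a study of mouse CD4+ T cells. They were chosen by name, each with every probe that the platform's probe-to-gene table gave it, and were 10 of the 15663 genes tested. Earlier results of these data were known when they were chosen. The shares of all genes given below are therefore a scale and not a test of the 10 as a set. There were 12 samples in 6 groups of 2, each hybridized to 1 Illumina Mouse WG-6 v2 array. All cells came from mice that carry a GFP reporter of Foxp3. TregHAR cells were T cells turned into regulatory T cells (Treg cells) in culture with harmine, an inhibitor of DYRK kinases, and little TGF-β, while Treghi cells received much TGF-β and no harmine. Both were sorted by fluorescence (FACS) on day 4 of culture, for which the methods give stimulation with anti-CD3 and anti-CD28 and added IL-2. The starting naive CD4+ T cells had been purified either on magnetic columns (MACS), for which the methods give CD4 negative enrichment followed by CD62L beads, or by FACS, and each of these naive preparations was arrayed as a group of its own. The induced groups are named below by the purification of the naive cells they came from. No culture day is given for the naive groups, so comparisons of induced with naive cells also span the stimulated culture. Age and sex of the mice are not given. The labels do not tie the 2 arrays of a group to different mice or cultures, and the spread behind each p-value is that between arrays. In the naive groups the 2 arrays differed in sex-linked transcripts, given below, so they did not hold RNA of the same mice. For the Treg groups the spread may be technical, although in both Treghi groups the Y-linked transcript Eif2s3y passed background in replicate 2 alone.

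Neutrophils and monocytes are the short-lived phagocytes of the innate immune system. Neutrophils are packed with granules whose proteins (cathelicidin, lactoferrin, lysozyme, neutrophilic granule protein) kill or starve bacteria, and their cytosol is filled with S100A8 and S100A9, 2 calcium-binding proteins that pair as calprotectin. Both cell types also carry Fc and activating receptors that signal through small membrane adaptors, FcRγ and DAP12, whose ITAM motifs recruit the kinase SYK. T cells use related adaptors of the CD3 complex and are not known as a source of granule proteins, and a naive T cell preparation can carry such cells along. In bulk RNA, fewer cells of a type and less RNA per cell cannot be told apart.

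Granule and S100 genes are turned on during myeloid development by transcription factors of the C/EBP family and by PU.1. The 250 bases before the start site of 7 members are shown, the S100 and lysozyme genes because each pair lies side by side, and Camp, Ltf and Ngp as the granule genes of chromosome 9. Matches to a C/EBP motif (TTNNGNAA or its reverse complement TTNCNNAA) and to a PU.1 core (GAGGAA or TTCCTC), searched on both strands, are in capitals, and no match to one overlapped a match to the other. The sequences are from RefSeq, build GRCm38.p6, written 5′ to 3′ on the strand of the gene.
S100a8, chr3:90668821-90669070, plus strand: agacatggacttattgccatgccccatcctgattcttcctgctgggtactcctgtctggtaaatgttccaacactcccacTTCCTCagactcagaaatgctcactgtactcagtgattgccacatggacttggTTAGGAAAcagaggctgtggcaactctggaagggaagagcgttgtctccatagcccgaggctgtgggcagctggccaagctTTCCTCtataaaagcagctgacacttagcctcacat
S100a9, chr3:90695722-90695971, minus strand: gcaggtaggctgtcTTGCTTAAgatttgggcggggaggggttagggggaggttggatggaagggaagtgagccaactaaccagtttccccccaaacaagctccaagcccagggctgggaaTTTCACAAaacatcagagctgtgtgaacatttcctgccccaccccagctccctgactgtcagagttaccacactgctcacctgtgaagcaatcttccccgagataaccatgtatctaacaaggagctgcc
Lyz1, chr10:117292869-117293118, minus strand: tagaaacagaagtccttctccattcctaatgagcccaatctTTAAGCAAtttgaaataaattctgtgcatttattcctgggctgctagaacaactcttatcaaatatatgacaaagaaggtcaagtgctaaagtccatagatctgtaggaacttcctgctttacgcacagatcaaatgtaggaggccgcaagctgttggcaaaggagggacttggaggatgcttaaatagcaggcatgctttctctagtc
Lyz2, chr10:117282273-117282522, minus strand: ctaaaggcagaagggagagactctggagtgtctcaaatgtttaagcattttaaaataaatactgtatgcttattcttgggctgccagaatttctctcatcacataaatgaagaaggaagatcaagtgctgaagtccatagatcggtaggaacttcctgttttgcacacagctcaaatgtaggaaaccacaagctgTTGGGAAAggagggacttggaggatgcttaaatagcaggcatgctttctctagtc
Camp, chr9:109849457-109849706, minus strand: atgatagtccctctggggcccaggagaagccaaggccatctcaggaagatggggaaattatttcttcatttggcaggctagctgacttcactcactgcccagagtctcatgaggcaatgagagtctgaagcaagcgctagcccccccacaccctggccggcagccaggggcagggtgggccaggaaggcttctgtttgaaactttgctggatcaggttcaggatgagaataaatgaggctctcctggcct
Ltf, chr9:111019042-111019291, plus strand: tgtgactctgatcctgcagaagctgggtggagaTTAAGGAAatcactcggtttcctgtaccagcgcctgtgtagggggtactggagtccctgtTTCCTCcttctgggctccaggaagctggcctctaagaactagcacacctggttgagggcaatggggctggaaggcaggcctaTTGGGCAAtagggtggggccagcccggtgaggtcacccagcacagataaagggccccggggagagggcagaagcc
Ngp, chr9:110419558-110419807, plus strand: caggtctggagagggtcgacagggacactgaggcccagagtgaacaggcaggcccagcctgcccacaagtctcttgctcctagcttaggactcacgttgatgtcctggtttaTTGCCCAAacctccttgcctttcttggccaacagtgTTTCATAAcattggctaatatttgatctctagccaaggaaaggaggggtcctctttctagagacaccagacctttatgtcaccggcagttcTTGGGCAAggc
Of the 10 members, 9 had a promoter in the table, and Tyrobp was the one without. The C/EBP letters were found in 7 of these 9 (S100a8, S100a9, Lyz1, Lyz2, Ltf, Ngp and Tgfbi), against 36.8% of all 32851 promoters of this length, and Ngp held 3 of them, the nearest 11 bases before the start. Camp and Fcer1g had neither motif. The PU.1 letters were found in 2 of 9, S100a8 and Ltf, against 23.3% of all promoters. A match is a description of the letters and not evidence of binding. S100a8 and S100a9 are direct neighbours on chromosome 3, as are Lyz1 and Lyz2 on chromosome 10, while Camp, Ngp and Ltf all lie on chromosome 9 with other genes between them. The Lyz1 and Lyz2 sequences were identical at 200 of 252 aligned positions (79.4%), and S100a8 and S100a9 at 121 of 266 (45.5%).

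The members were brightest in MACS-purified naive cells, dimmer and in part near background after FACS purification, and at or near background in the Treg cells. In MACS-purified naive cells all 10 exceeded the FACS-purified cells by 2.67- to 7.96-fold, and 9 of 10 passed the test, where 1.35% of all genes tested were called higher and 0.0383% lower. In both kinds of Treg cells 8 of the 10 were under the background ceiling on every array. The ceiling is an upper bound of the unexpressed probes on each array, at a normalized log2 intensity of 6.22 to 6.23, which matches deposited intensities of 106.1 to 126.9. Where every array of a group lies under it, a fold is given as "at least", the brighter group's mean over the ceiling, or over the probe's own value where that is higher. Differences are on the normalized log2 scale with standard errors from limma, and adjusted p is after Benjamini-Hochberg over all genes tested. Fold changes are taken from those normalized values, while array values are deposited intensities, replicate 1 before replicate 2.

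Both subunits of calprotectin followed the same order of groups. S100a8 gave intensities of 90.7 to 100.6 (median 96.0) on the 4 TregHAR arrays and 87.8 to 104.0 (median 93.6) on the 4 Treghi arrays, against 4437 and 9131 in MACS-purified and 922 and 2168 in FACS-purified naive cells. Both MACS arrays lay above both FACS arrays, and all 8 Treg arrays lay below the ceiling. S100a8 was higher by 2.31 ± 0.37 (log2, SE, adjusted p = 0.0144) in MACS-purified than in FACS-purified naive cells, 4.95-fold. S100a9 gave 87.3 to 99.0 (median 91.8) in TregHAR cells and 92.4 to 98.8 (median 93.9) in Treghi cells, against 958 and 3186 in MACS-purified and 215 and 450 in FACS-purified naive cells. Its purification groups did not overlap either, although the 2 MACS arrays differed from each other by 1.81 on the log2 scale. The difference between the purifications was 2.80 ± 0.50 (adjusted p = 0.0261), 6.99-fold.

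Lysozyme digests bacterial cell walls, and mice have 2 genes for it, Lyz1 of intestinal Paneth cells and Lyz2 of myeloid cells. They are close copies, and whether their probes tell the transcripts apart was not tested because probe sequences were not used here. The brightest Lyz1 probe gave 90.4 to 105.4 (median 99.8) in TregHAR and 98.1 to 102.7 (median 100.7) in Treghi cells, against 4416 and 10590 in MACS-purified and 932 and 1962 in FACS-purified naive cells. The brightest Lyz2 probe gave 84.4 to 98.0 (median 90.1) and 85.4 to 94.9 (median 91.2) in TregHAR and Treghi cells, against 1263 and 2564 in MACS-purified and 282 and 628 in FACS-purified naive cells. For both, every naive array stood above the ceiling and the purification groups did not overlap. The differences between MACS-purified and FACS-purified naive cells were 2.46 ± 0.38 for Lyz1 (adjusted p = 0.0119) and 2.40 ± 0.39 for Lyz2 (adjusted p = 0.0143).

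Among the granule genes, Camp encodes the precursor of the antimicrobial peptide CRAMP. Its intensities were 94.6 to 98.9 (median 97.6) in TregHAR and 87.8 to 97.3 (median 92.6) in Treghi cells, against 651 and 1031 in MACS-purified and 142 and 176 in FACS-purified naive cells. Camp thus stood only slightly above the ceiling after FACS, and was higher after MACS by 2.85 ± 0.23 (adjusted p = 0.000258), 7.19-fold. Ltf encodes lactoferrin, the iron-binding protein of secondary granules. Its brighter probe gave 117.8 to 154.5 (median 132.4) in TregHAR and 118.9 to 152.9 (median 128.8) in Treghi cells, against 876 and 1609 in MACS-purified and 168 and 239 in FACS-purified naive cells. Ltf was the one member above the ceiling on all 12 arrays, and it had the largest difference of the 10 between the naive preparations, 2.99 ± 0.30 (adjusted p = 0.000729), 7.96-fold. Ngp, a cystatin-like protein of the neutrophil granule, gave 88.6 to 103.4 (median 96.2) in TregHAR and 93.9 to 102.2 (median 99.3) in Treghi cells, against 273 and 280 in MACS-purified and 119 and 144 in FACS-purified naive cells. It had the smallest difference of the 10 and also the smallest error, 1.42 ± 0.11 (adjusted p = 0.000175), 2.67-fold.

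The adaptors showed the same pattern. Fcer1g, which encodes FcRγ, gave 92.1 to 113.6 (median 100.5) in TregHAR and 97.0 to 121.8 (median 104.4) in Treghi cells, against 1144 and 1918 in MACS-purified and 224 and 336 in FACS-purified naive cells. It passed the ceiling on 1 of the 4 TregHAR arrays and 1 of the 4 Treghi arrays, each time in a group from FACS-purified cells. Tyrobp, which encodes DAP12, gave 91.0 to 101.1 (median 94.1) in TregHAR and 85.9 to 98.8 (median 89.3) in Treghi cells, against 336 and 491 in MACS-purified and 133 and 145 in FACS-purified naive cells. The differences between MACS-purified and FACS-purified naive cells were 2.81 ± 0.28 for Fcer1g (adjusted p = 0.000667), 7.02-fold, and 1.96 ± 0.18 for Tyrobp (adjusted p = 0.000442), 3.88-fold. Tgfbi encodes a secreted matrix protein that TGF-β induces in many cell types and that monocytes and macrophages express. Its intensities were 88.8 to 97.2 (median 92.9) in TregHAR and 88.7 to 104.6 (median 93.2) in Treghi cells, against 281 and 869 in MACS-purified and 110 and 180 in FACS-purified naive cells. In the cells cultured with TGF-β it stayed under the ceiling on all 8 arrays, and replicate 1 of the FACS-purified naive cells was under it too. Tgfbi differed between the purifications by 2.27 ± 0.50, and its adjusted p of 0.0785 did not pass the threshold.

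**Figure D1:**
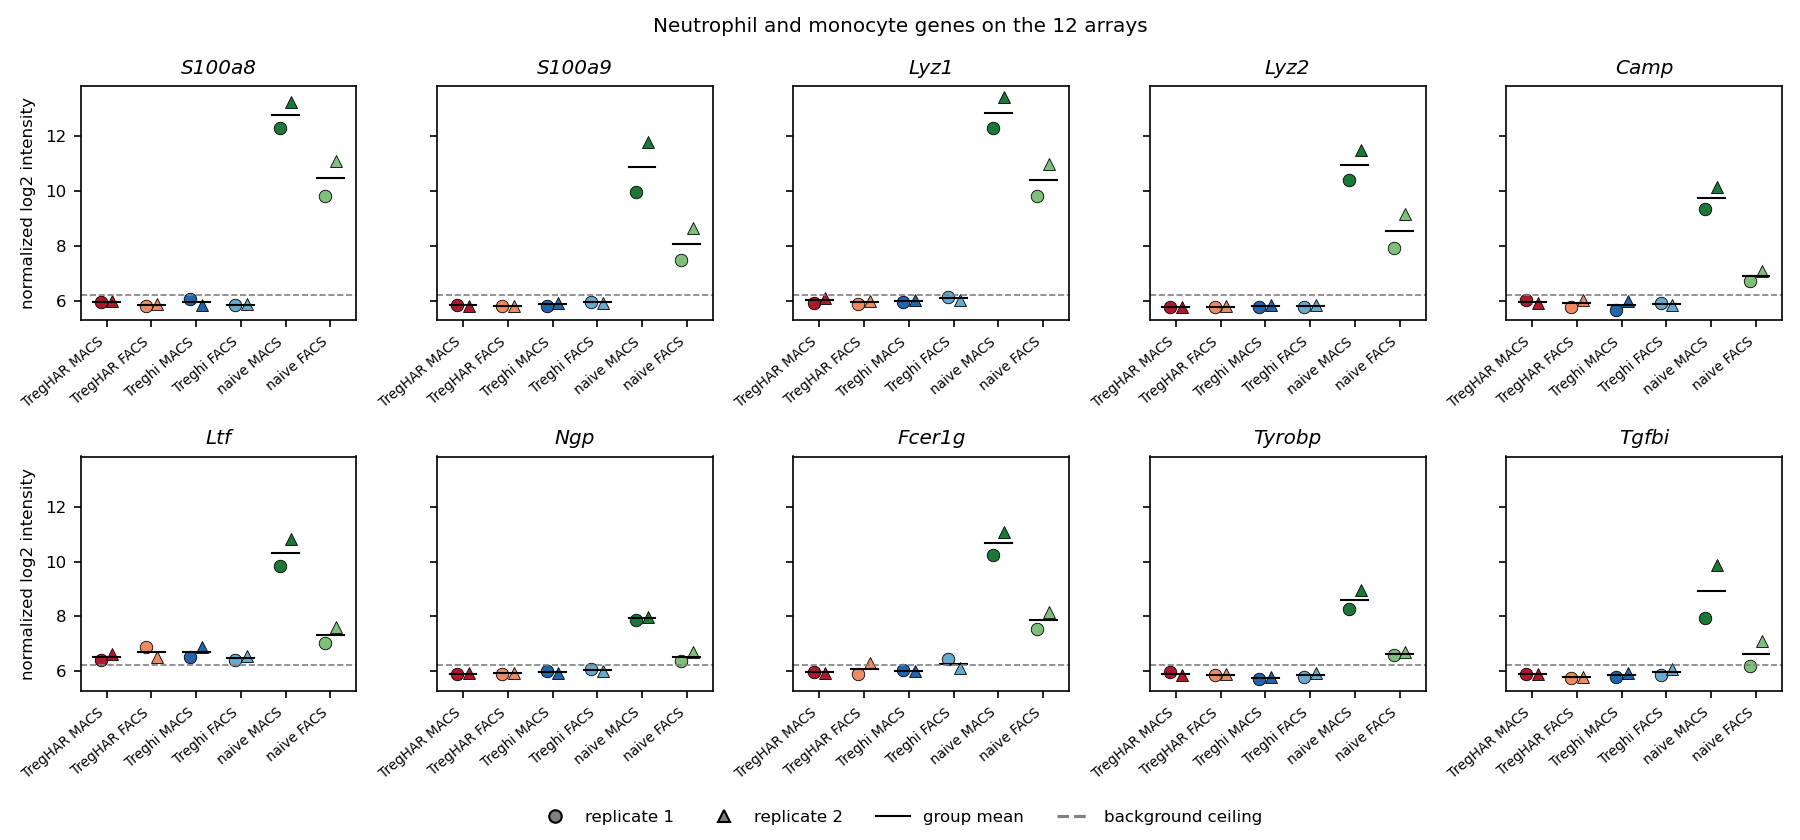
Normalized log2 intensity (vertical axis) of the probe representing each gene on the 12 arrays, by group (horizontal axis); circles are replicate 1, triangles replicate 2, black lines group means and the dashed line the background ceiling. In every panel both MACS-purified naive arrays stand above both FACS-purified naive arrays, and of the 8 Treg arrays Ltf is above the ceiling on 8, Fcer1g on 2 and the other 8 genes on 0.

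Read together in the naive cells, the median difference of the members was 2.43 on the log2 scale, against -0.006 over all genes tested. All 10 differed by over 1 on the log2 scale, as 1.11% of all genes did in either direction. Both MACS arrays were above both FACS arrays for 10 of 10, as for 19.3% of all genes. The naive arrays also differed by replicate number. Replicate 2 was brighter than replicate 1 within both purifications for 10 of 10 members, as for 29.4% of all genes, by 0.10 to 1.93 (median 0.95) after MACS and by 0.11 to 1.28 (median 0.77) after FACS on the log2 scale. Replicate 1 of both preparations carried signal of the female transcript Xist (log2 level 8.47 after MACS and 8.19 after FACS), whereas replicate 2 carried that of the Y-linked gene Eif2s3y (8.08 and 8.07) with Xist at 5.84 and 5.76, so replicate number and this sex pattern cannot be told apart in the naive cells. All 8 Treg arrays carried Xist, at 8.98 to 10.49, and Eif2s3y ranged over 5.67 to 6.99 on them. Eif2s3y was above the ceiling on 4 of these 8. They were replicate 2 of both Treghi groups and both TregHAR arrays from MACS-purified cells. The purification difference was present within each number, at 1.53 to 2.78 (median 2.49) between the replicate 1 arrays and at 1.30 to 3.20 (median 2.62) between the replicate 2 arrays.

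**Figure D2:**
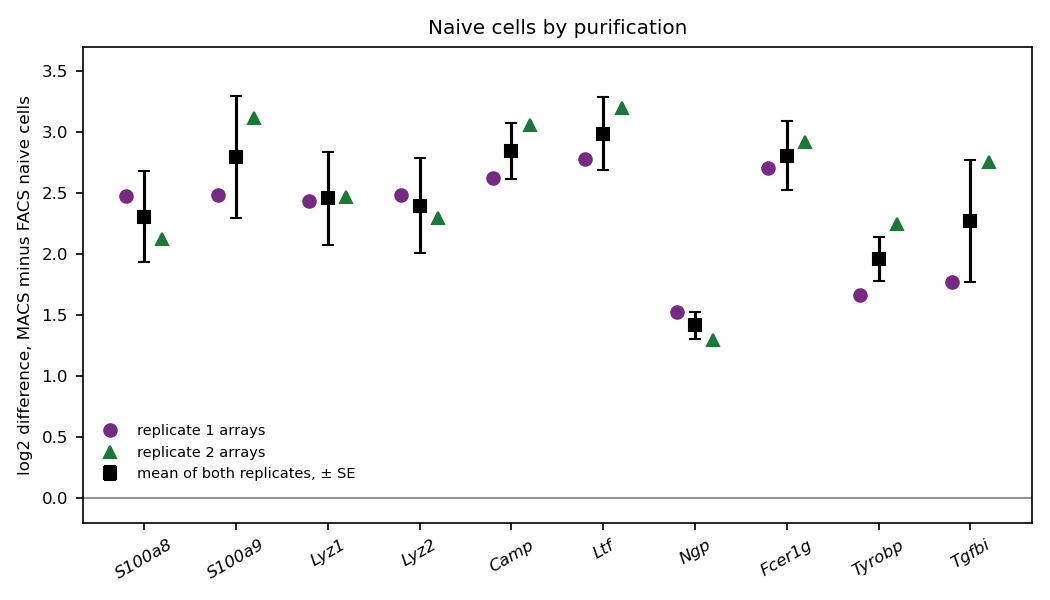
Log2 difference of MACS-purified minus FACS-purified naive cells (vertical axis) for each gene (horizontal axis): black squares with bars are the fitted difference ± SE, circles the replicate 1 arrays and triangles the replicate 2 arrays. Every value is positive, from 1.30 for Ngp in replicate 2 to 3.20 for Ltf in replicate 2.

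The test in naive cells leaned on the Treg arrays, since all 6 groups shared 1 estimate of the spread and most members sat at background in 4 of those groups. In a fit of the 4 naive arrays alone the differences were the same, their errors were 0.14 to 0.67, and 2 of 10 members (Camp and Ngp, adjusted p = 0.0388 each) passed the threshold. That fit ignores the replicate number, which marks the sex pattern in both naive preparations. With a replicate term for the naive arrays, added to the fit of all arrays after the data were seen, the errors were 0.08 to 0.20 and 10 of 10 members passed, Tgfbi with an adjusted p of 0.000418. The fit with this term also shared 1 estimate of the spread over all 6 groups. Its small errors therefore leaned on the Treg arrays at background as well. Without that term, leaving out FACS-purified replicate 1 or MACS-purified replicate 2 left 5 of 10, Camp, Ltf, Ngp, Fcer1g and Tyrobp in both cases. With 2 arrays against 2, an exact permutation test of a single gene cannot give a p below 0.333.

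Other genes of the same cells were compared in the same way, in lists also chosen with earlier results of these data known. Of a list of 26 other neutrophil genes tested, 10 were higher in MACS-purified than in FACS-purified naive cells and 0 lower, with a median of 0.85 on the log2 scale. The largest called differences were those of Il1b, the cytokine interleukin-1β (2.38 ± 0.25, adjusted p = 0.00119), Lcn2, the granule protein lipocalin 2 (2.31 ± 0.36, adjusted p = 0.0112), and Hdc, which makes histamine (2.11 ± 0.37, adjusted p = 0.0218). Csf3r, the receptor for the neutrophil growth factor G-CSF, gave 130.0 and 166.8 in MACS-purified and 112.3 and 106.5 in FACS-purified naive cells. Of 30 monocyte and macrophage genes, 6 were higher and 0 lower (median 0.47), led by the protease Ctsh (2.38 ± 0.11, adjusted p = 7.03e-06) and by C1qb and C1qc, which encode chains of complement C1q (1.86 ± 0.31 and 1.29 ± 0.18, adjusted p = 0.0169 and 0.00699). The monocyte receptors Csf1r, Cd14 and Ccr2 were above the ceiling on 2 of 12 arrays each, the 2 MACS-purified naive ones. Their differences of 0.41, 0.75 and 0.45 did not pass the threshold (adjusted p = 0.194, 0.101 and 0.220).

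A list of 15 tested genes of ITAM signalling and related adaptors held genes that work with FcRγ and DAP12, and also T cell genes such as Cd247. Of these 15, 4 were higher and 0 lower in MACS-purified naive cells (median 0.20). Fcgr3 was called both here and in the monocyte and macrophage list, so the 2 counts overlap. The phospholipase Plcg2, which B and myeloid cells use, gave 412 and 419 after MACS and 125 and 132 after FACS, a difference of 2.16 ± 0.10 (adjusted p = 7.03e-06). The Fc receptor Fcgr4 was higher by 1.91 ± 0.34 (adjusted p = 0.0244) and the kinase Btk by 1.57 ± 0.12 (adjusted p = 0.000179). Syk itself was under the ceiling on all 12 arrays. Zap70, the kinase with that role in T cells, was above it on all 12 and gave 2101 and 1790 in MACS-purified and 2441 and 2468 in FACS-purified naive cells (log2 difference -0.22, adjusted p = 0.773).

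Markers of other blood cells moved in the same direction in the naive cells. Of 11 B cell and MHC class II genes tested, 6 were higher after MACS and 0 lower, with a median of 1.04. H2-Eb1 and H2-Ab1, which encode class II chains, were higher by 2.71 ± 0.18 and 2.67 ± 0.31 (adjusted p = 9.45e-05 and 0.00213), and Cd79b, a chain of the B cell receptor complex, by 2.65 ± 0.36 (adjusted p = 0.00595). The summed intensity of that list was 14475 and 18115 on the MACS arrays and 3528 and 3912 on the FACS arrays in ascending order, against 14636 and 31670, and 3246 and 6427, for the 10 members. Of 11 NK and CD8 T cell genes 2 were higher, Ccl5 (1.93 ± 0.15, adjusted p = 0.000226) and Klre1 (1.52 ± 0.12, adjusted p = 0.000181). Of 7 erythroid and platelet genes 2 were higher, Slc4a1, the anion exchanger of red cells (3.28 ± 0.13, adjusted p = 5.48e-06), and Alas2 (0.97 ± 0.13, adjusted p = 0.00498), and of 4 dendritic cell genes 0. How far each of these cell types accounts for the members' signal was not tested.

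The T cell lists had no calls. None of 11 T cell, 6 naive T cell, 11 Treg and 12 TGF-β response genes was called between the naive preparations in this fit, which called 1.39% of all genes in either direction, and the medians were -0.21, -0.18, 0.01 and -0.04. The lack of calls does not show equal levels. Summed T cell intensities were 32984 and 35004 after MACS and 42864 and 44809 after FACS. Those of the naive T cell list were 5471 and 6381 against 6999 and 7276, and of TGF-β response genes 4802 and 5098 against 5455 and 5703. Treg sums overlapped, at 3020 and 3271 against 2973 and 3068. Of 4 sex-linked genes 0 were called, with a median of 0.07. At an unadjusted p under 0.05 the fit of all genes held 1540 genes. Cd3e, a chain of the T cell receptor complex, gave 5803 and 4458 in MACS-purified and 7401 and 5970 in FACS-purified naive cells, and its difference of -0.25 ± 0.19 did not pass (adjusted p = 0.773). The labels were checked against defining genes. Cd3e and Cd4 were above the ceiling on all 12 arrays, and Il2ra, the α chain of the interleukin-2 receptor, was higher in TregHAR than in naive cells by 3.82 (FACS) and 3.97 (MACS) and in Treghi cells by 3.18 and 3.49. These Il2ra values are fitted differences and not measured folds, since Il2ra was under the ceiling on all 4 naive arrays. Foxp3, the transcription factor that defines Treg cells, gave 141.8 to 202.4 in TregHAR and 132.8 to 178.9 in Treghi cells against 176.8 to 207.1 in naive cells, and none of its 4 differences from naive cells passed the threshold (adjusted p = 0.163 to 0.688). Gpr83, a receptor found on Treg cells, was the one Treg gene of 11 called between TregHAR and Treghi cells, higher in TregHAR by 1.06 ± 0.15 (adjusted p = 0.0322). Il7r, the interleukin-7 receptor of naive T cells, was lower in TregHAR than in naive cells, with differences of -2.93 (FACS) and -2.05 (MACS), as was Tgfbr2, a TGF-β receptor chain, with -2.46 and -2.34 (adjusted p = 3.94e-05 and 0.000313, 0.00018 and 0.000218).

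**Figure D3:**
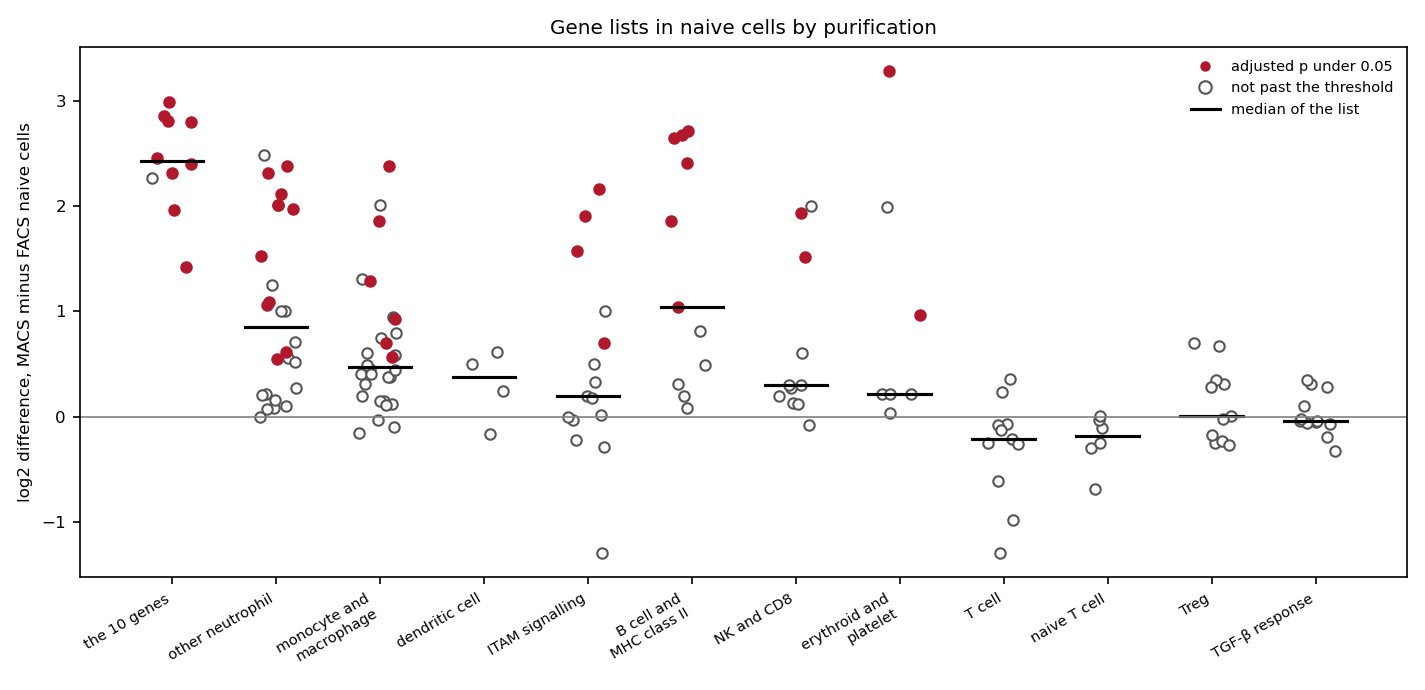
Log2 difference of MACS-purified minus FACS-purified naive cells (vertical axis) for the tested genes of each list (horizontal axis); red points have an adjusted p under 0.05, open points do not, and black lines are list medians. The 10 members have a median of 2.43, the B cell and MHC class II list 1.04, other neutrophil genes 0.85, and the T cell list -0.21.

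The Treg cells were then set against the naive cells, each gene by its brightest probe. The other kept probes of Lyz2, Ltf and Tgfbi gave smaller differences, which are given below. All 8 Treg arrays lay below all 4 naive arrays for 10 of 10 members, as for 9.56% of all genes. In TregHAR cells from MACS-purified cells 10 of 10 members were lower than in the MACS-purified naive cells, where 10.2% of all genes were called lower, with a fitted median of -4.25 on the log2 scale, or -4.12 with the 9 members that were under the ceiling in these Treg cells set at their bound. S100a8 was at least 93.3-fold and Lyz1 at least 99.2-fold lower (adjusted p = 2.5e-06 and 2.87e-06), Lyz2 at least 26.4-fold, S100a9 at least 25.2-fold, Fcer1g at least 21.7-fold and Camp at least 11.5-fold. Ltf, measured on both sides, was 13.9-fold lower (adjusted p = 2.19e-05), and Tgfbi, Tyrobp and Ngp were at least 6.45-, 5.22- and 3.29-fold lower. In Treghi cells from MACS-purified cells 10 of 10 were lower too, where 9.05% of all genes were, with a fitted median of -4.28 (-4.02 with 9 members at their bound) and bounds of at least 93.3-fold for S100a8 and 99.1-fold for Lyz1. Since these comparisons share the naive arrays, they are not separate evidence.

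The FACS-purified naive cells, which were closer to the ceiling, gave smaller bounds. In TregHAR cells from FACS-purified cells 8 of 10 members were lower, where 8.98% of all genes were called lower, with a fitted median of -1.37, or -1.21 with 8 members at their bound. S100a8 and Lyz1 were at least 18.9- and 18.1-fold lower (adjusted p = 3.13e-05 and 4.57e-05), Lyz2 at least 5.03-fold and S100a9 at least 3.60-fold. Fcer1g, with 1 of 2 Treg arrays above the ceiling, was 3.37-fold lower, and Camp, Tyrobp and Ngp were at least 1.60-, 1.34- and 1.23-fold lower. Ltf (log2 difference -0.63 ± 0.30, adjusted p = 0.213) and Tgfbi (-0.87 ± 0.50, adjusted p = 0.327) did not pass. In Treghi cells from FACS-purified cells the same 8 of 10 were lower, where 8.03% of all genes were, and Ltf and Tgfbi had adjusted p of 0.0886 and 0.487. On the deposited log2 values, or with no background correction, 5 of 10 were called in each of these comparisons, S100a8, Lyz1, Lyz2, Ngp and Fcer1g. Without FACS-purified naive replicate 2 the counts were 5 for TregHAR and 4 for Treghi cells, without TregHAR FACS replicate 1 the count for TregHAR was 5, and without either Treghi FACS array that for Treghi was 4.

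The difference from naive cells in the MACS arm minus that in the FACS arm was fitted as well. With the Treg values at or near background in both arms, it repeats the difference between the naive preparations with its sign turned and is no separate test. It was called lower for 5 of 10 members in TregHAR cells, where 0.543% of all genes were, and for 5 of 10 in Treghi cells, where 0.555% were. The 5 were Camp, Ltf, Ngp, Fcer1g and Tyrobp in both, with differences of -3.17 to -1.44 in TregHAR and -3.07 to -1.48 in Treghi cells. S100a8, S100a9, Lyz1 and Lyz2, whose replicates lay farther apart, had values of -2.77 to -2.20 in TregHAR cells with errors of 0.53 to 0.71 and did not pass, nor did Tgfbi (-2.14 ± 0.71). Without MACS-purified naive replicate 1 the counts were 9 and 10, and without either Treghi FACS array that for Treghi cells was 3.

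No difference between the 2 kinds of Treg cells was detected. Taken over both purifications, 0 of 10 members were called between TregHAR and Treghi cells by limma, where 0.466% of all genes were, and 0 of 10 had an unadjusted p under 0.05. The methods' t-test on the same values gave 2 at that unadjusted threshold, S100a9 and Ngp, and 0 after Benjamini-Hochberg. The differences were -0.12 (Fcer1g) to 0.08 (Camp and Tyrobp). For Ltf, the one member above the ceiling on every array, the difference was 0.02 with a 95% interval of -0.45 to 0.49. For Ngp the interval was -0.25 to 0.09, and the widest was that of S100a9, -0.89 to 0.72. These intervals and the limma tests here use the spread shared by all 6 groups, naive arrays included. For S100a9 the standard deviation was 0.842 and 1.28 in FACS-purified and MACS-purified naive cells and 0.00937 to 0.0765 in the Treg groups. The width of its interval was thus set mostly by naive arrays outside this comparison. As 8 of the 10 members were under the ceiling in both, a difference below background was not measurable. Nor did the purification of the starting cells leave a detectable difference after culture. By limma 0 of 10 members and 0 genes in all were called between the MACS and FACS arms within TregHAR cells or within Treghi cells, with 581 and 388 genes and 0 members at an unadjusted p under 0.05, and the methods' t-test gave 1 member, Tgfbi in TregHAR cells, at that threshold.

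The 10 genes had 16 probes, of which 14 passed the filter on dim signal. Where a gene had several, the probes disagreed in size but not in direction among those above background. Of the 3 Lyz1 probes, 2 were under the ceiling on all 12 arrays, while the third was the bright one described above. The second Lyz2 probe gave 178 and 502 in MACS-purified and 109 and 152 in FACS-purified naive cells, a difference of 1.57 ± 0.46, and the third gave 125 and 171 against 99.4 and 102.2, a difference of 0.69 ± 0.19 (adjusted p over all probes 0.228 and 0.189). The second Ltf probe gave 117 and 132 in MACS-purified and 101 and 104 in FACS-purified naive cells and passed the ceiling on 1 of 12 arrays. In the Treg cells it gave 89.6 to 103.0 and was under the ceiling on all 8 arrays, so the Ltf signal in Treg cells rests on 1 of 2 probes. The second Tgfbi probe gave 130 and 197 in MACS-purified and 96.5 and 107 in FACS-purified naive cells (0.88 ± 0.24, adjusted p = 0.176).

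**Figure D4:**
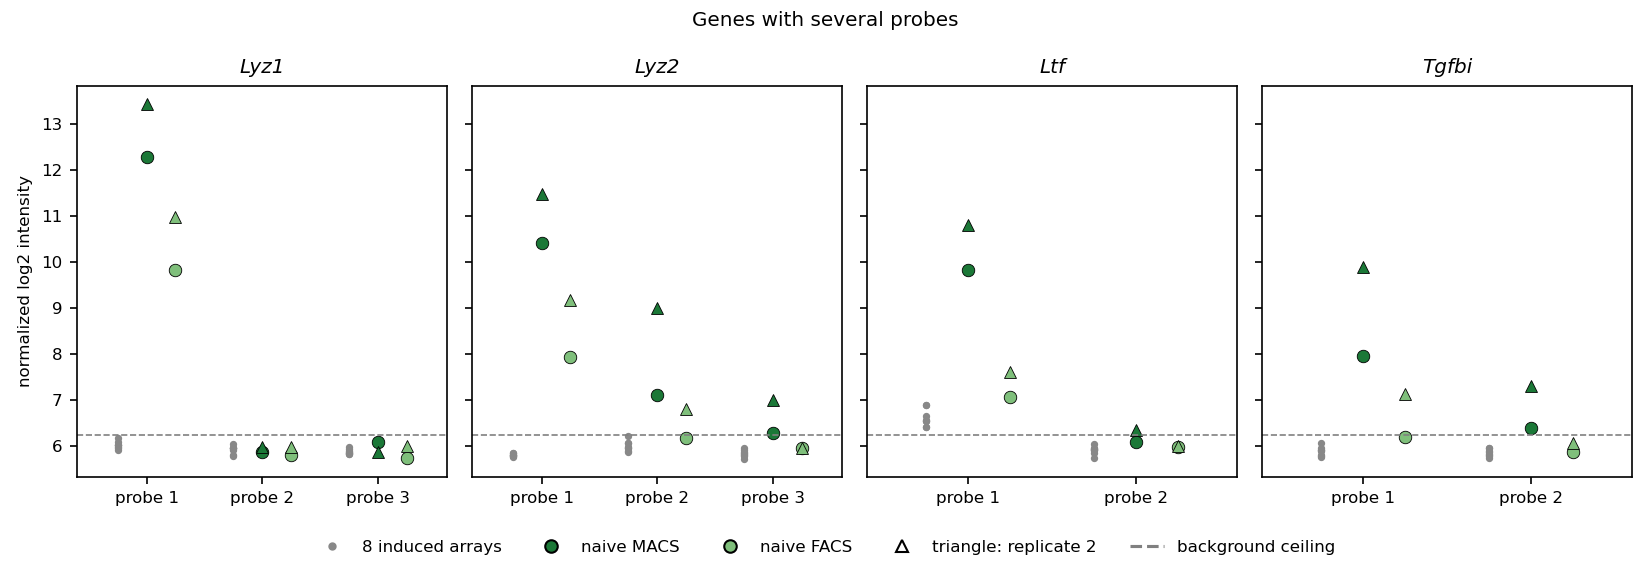
Normalized log2 intensity (vertical axis) of every probe of the 4 genes with several probes (horizontal axis); grey dots are the 8 Treg arrays, dark green the MACS-purified and light green the FACS-purified naive arrays, with circles for replicate 1, triangles for replicate 2 and the dashed line for the background ceiling. For each gene 1 probe is far brighter than the others in MACS-purified naive cells, and the second probe of Ltf is under the ceiling on all 8 Treg arrays. In FACS-purified naive cells the Tgfbi probes lie closer, at 6.18 and 7.12 against 5.87 and 6.06.

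Genes whose profile was most like that of a member were found from the root-mean-square difference of their centred log2 levels over the 12 arrays, among 10136 genes above background on at least 1 array. Nearest to Tyrobp were Fcna, Ffar2, Vcam1, Lat2, Ccl9 and Ccnd1, at 0.15 to 0.19 against a median of 1.03. Of these, Fcna and Vcam1 are known from macrophages, Ffar2 from neutrophils, and Lat2 is an adaptor of B and myeloid cells. Nearest to Tgfbi were Hp, Retnlg, F13a1, Sirpa, Hdc and Slpi, at 0.15 to 0.25 against a median of 1.21. Hp and Retnlg are products of neutrophils and F13a1 of monocytes, and like Tgfbi they were brightest in MACS-purified replicate 2, at log2 levels of 9.81, 10.40 and 9.76 against 7.51, 7.94 and 7.33 in replicate 1. The members themselves were left out of these candidates. S100a8 lay at 0.12 from Lyz1, the closest pair among the 10 members, and its next member was Lyz2 at 0.83. Outside the members its nearest were Ppp1r15a, Hba-a1, Hbb-bt, Hbb-bs, Ifi213 and H2-Eb1, the first at 0.83 against a median of 2.79. The globin genes among them were lowest of the naive arrays in FACS-purified replicate 2 (Hba-a1 9.49, against 11.98 in replicate 1), where S100a8 was higher than in replicate 1.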

How the data were processed

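Total RNA of 12 samples was amplified, labelled and hybridized by the authors to Illumina Mouse WG-6 v2 arrays. The authors collected probe intensity values with GenomeStudio and deposited them as a non-normalized intensity table, which was used here. All arrays had the same mean intensity (256.6) and none was near 0, so some scaling between arrays, but no background subtraction, preceded deposition. The deposited log2 table, made by the authors with lumi (background correction, variance-stabilizing transformation, robust spline normalization), served as an alternative. Array number, not depth, limits precision here.

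Intensities were corrected with limma 3.58.1 (normexp, offset 50), quantile normalized and taken to log2 in R 4.3.3. Probes above the array median on at least 2 arrays were kept (32081 of 45281). Genes came from the platform annotation: 34885 probes had 1 gene, 18 several and 10378 none. The brightest kept probe represented each gene (15663 genes). A mean for each of 6 groups was fitted (lmFit, eBayes, 6 residual degrees of freedom), with Benjamini-Hochberg adjustment and a threshold of 0.05, two-sided. The background ceiling was 3 standard deviations above the density peak of each array, measured from its lower side. The fit was tested on simulated data. Named genes were the members, up to 3 called genes of each list with the largest difference (1 for the T cell lists), a few lineage genes and the 6 nearest profiles. Csf3r, Csf1r, Cd14, Ccr2, Syk and Zap70 were named in addition, after their values were seen. The members and lists were chosen with earlier results of these data known. Alternatives were other background corrections and normalizations, probe filters, the deposited log2 values, a replicate block, the methods' t-test and leaving out each array. The 4 naive arrays alone and the block within them were added after seeing the data.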

Additional observations from a re-analysis of the deposited data

Results flagged for a closer look

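The difference between Treg and naive cells differed between the MACS and FACS arms for 5 genes (limma interaction, adjusted p under the threshold). Since Camp, Ngp and Tyrobp were under the background ceiling on all 8 Treg arrays, and Ltf and Fcer1g near it, these values repeat the difference between the naive preparations with its sign turned and are not a separate test. For TregHAR cells the difference in the MACS arm minus that in the FACS arm was -2.78 for Camp, -3.17 for Ltf, -1.44 for Ngp, -2.95 for Fcer1g and -1.93 for Tyrobp on the log2 scale. For Treghi cells it was -2.88 for Camp, -2.76 for Ltf, -1.48 for Ngp, -3.07 for Fcer1g and -2.06 for Tyrobp. Both sets use the same 4 naive arrays, and between the MACS and FACS arms of the Treg cells 0 of 10 members were called.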

How the results depend on the processing

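For the naive preparations, the comparisons with naive cells and the MACS arm minus FACS arm differences, no member changed direction under any alternative run. The direction of differences between TregHAR and Treghi cells, or between their arms, was not followed. Of the 10 members, 9 were called between MACS-purified and FACS-purified naive cells, against 5 to 10 when an array was left out, 2 with the 4 naive arrays alone, 5 by the methods' t-test at an unadjusted p under 0.05 and 0 by it after Benjamini-Hochberg. The counts lower in TregHAR and Treghi cells were 10 and 10 (MACS) and 8 and 8 (FACS), all 0 by the methods' t-test after Benjamini-Hochberg. The FACS counts were 5 and 5 with no background correction, 5 and 5 on the deposited log2 values, and 5 to 9 and 4 to 9 without 1 array, while the MACS counts stayed at 10. Between TregHAR and Treghi cells 0 members were called, against 2 by the unadjusted t-test, and between the arms of TregHAR cells 0, against 1. The MACS arm minus FACS arm differences were called for 5 and 5, against 4 to 9 and 3 to 10 without 1 array, and against 8 in Treghi cells with an offset of 16. The causes were not tested. Counts over all genes moved as well. Between naive preparations they were 218, against 100 to 567 without 1 array, 65 with the naive arrays alone, 1067 by the unadjusted t-test and 2 adjusted. Between TregHAR and Treghi cells they were 73, against 9 to 140, 45 on the deposited values, 39 with a replicate block, and 1613 and 8 by the t-test. Between the arms of TregHAR and Treghi cells they were 0 and 0, against 782 and 662 by the unadjusted t-test.

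Across the 6 groups the replicate numbers were not taken to pair the samples, since 6 of 15 pairs of groups had a correlation of deviations over 0.1. The 15 correlations ran from -0.622 to 0.423, so some groups had replicate numbers that went in opposite directions. The highest was that of the naive preparations, whose numbers share a sex pattern. With the replicate block, 10 members were called between the naive preparations, 8 and 9 lower in TregHAR and Treghi cells of the FACS arm, and 5 and 5 for the MACS arm minus FACS arm differences. A block within the naive arrays, in a fit that still shared its spread with the Treg arrays, gave 10, with adjusted p of 0.000418 for Tgfbi. Signal over background limits the Treg comparisons, where the members were above the ceiling in 10 of 80 measurements.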

Other observations

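A few genes of the neutrophil and monocyte lists kept signal in the Treg cells, and were picked after their values were seen. Pglyrp1, a peptidoglycan-binding protein of neutrophil granules that other cells express too, gave 236.3 to 346.3 in TregHAR and 182.1 to 462.7 in Treghi cells, against 522 and 584 in MACS-purified and 343 and 307 in FACS-purified naive cells. The transcription factor Cebpb gave 272.5 to 540.3 in TregHAR and 323.4 to 450.9 in Treghi cells, against 879 and 1445 in MACS-purified and 794 and 875 in FACS-purified naive cells. Lst1, a leukocyte membrane protein, gave 297.6 to 398.4 in TregHAR and 273.0 to 379.1 in Treghi cells, against 358 and 446 in MACS-purified and 217 and 174 in FACS-purified naive cells. Lst1 was higher in TregHAR cells than in FACS-purified naive cells by 0.99 on the log2 scale (limma, adjusted p = 0.0289). The other comparisons of Lst1 with naive cells did not pass the threshold. They were 0.75 for Treghi cells in the FACS arm (adjusted p = 0.0928), and -0.37 and -0.42 for TregHAR and Treghi cells in the MACS arm (0.428 and 0.379).

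Replicate number did not move all other blood cell markers the way it moved the members. Cd79b gave log2 levels of 11.50 and 10.54 in replicates 1 and 2 of the MACS-purified and 8.91 and 7.83 in those of the FACS-purified naive cells, so replicate 2 was the dimmer one in both, where the 10 members were brighter in replicate 2.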
